A study of Mus musculus with 10 samples.

Results

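The transcripts described here are 33 genes of the T-cell programme, taken as the rows of the deposited gene table whose RefSeq identifiers map to a fixed list of symbols, 33 of the 24160 gene rows in all. They cover the CD3 and zeta chains of the T-cell receptor complex (4 genes), the coreceptors (3), proximal receptor signalling (6), adhesion and costimulation (6), genes of naive and recirculating T cells (7), helper and regulatory genes (4) and cytotoxic genes (3). The row of Lck also holds the microRNA gene Mir8119, that of Cd27 holds Mir8113 and that of Foxp3 holds Flicr, so those 3 values are for the joined rows. The members were chosen by name, and wild type replicate 2 had been singled out earlier for its lymphocyte transcripts, so its difference from the other libraries is given as a description with no test.

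Polyadenylated RNA came from the posterior wall of the left ventricle of C57BL6/J mice, 6 libraries labelled MC4R-/- (knockout of the melanocortin 4 receptor) and 4 labelled wild type. Both groups were bred by crossing heterozygotes, kept at 24 °C to an age of 30 weeks and anesthetized before the hearts were frozen in liquid nitrogen, and no treatment separates them. The allele of the knockout, the sex of the animals and whether each library is a separate animal are not stated in the labels, so every p-value measures the spread between these libraries, which may be technical. Comparing the genotypes asks whether loss of the receptor changes the ventricular transcriptome.

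T cells recognise peptides through a clonal receptor that cannot signal by itself. The CD3 and zeta chains carry the signal into the cell, where the kinase Lck, held at the coreceptors CD4 or CD8, phosphorylates them and the kinase Zap70 passes the signal to the adaptor Lat. Naive T cells circulate between blood and lymph nodes and express the homing receptor Ccr7, the cytokine receptor Il7r and the transcription factors Tcf7 and Lef1, whereas effector cells lose these and gain cytotoxic or helper genes. A healthy ventricle holds few T cells beside its myocytes, endothelium, fibroblasts and macrophages.

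Sequences before transcript starts of the genes at the start of this pathway are shown because these genes stood high together in 1 library. That of Cd8a, which did not stand high, is added for contrast. Each line gives the 250 bases before a RefSeq transcript start (build GRCm38.p6), 5′ to 3′ on the strand of the gene, and capitals mark 6-base motifs on either strand. The ETS family motif is GGAAGT, which reads ACTTCC on the opposite strand. The RUNX family motif is TGTGGT, which on the opposite strand reads ACCACA. For Tcf7 and Lef1 the motif is CTTTGA, or TCAAAG when found in reverse. Lck has 2 starts, here called distal and proximal by their distance from the rest of the gene. The proximal line lies within the gene span of Lck. The lines of Cd3e and Cd3d run into their gene spans, which reach 45009663 for Cd3e and begin at 44981769 for Cd3d. The marked motif of Cd3e lies in that overlap.
Cd3e, chr9:45009612-45009861, minus strand: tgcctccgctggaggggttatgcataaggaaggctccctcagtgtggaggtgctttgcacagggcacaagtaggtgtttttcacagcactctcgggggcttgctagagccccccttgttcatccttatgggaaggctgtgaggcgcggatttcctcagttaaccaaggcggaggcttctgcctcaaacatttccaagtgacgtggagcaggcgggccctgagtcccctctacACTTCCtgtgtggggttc
Cd3d, chr9:44981536-44981785, plus strand: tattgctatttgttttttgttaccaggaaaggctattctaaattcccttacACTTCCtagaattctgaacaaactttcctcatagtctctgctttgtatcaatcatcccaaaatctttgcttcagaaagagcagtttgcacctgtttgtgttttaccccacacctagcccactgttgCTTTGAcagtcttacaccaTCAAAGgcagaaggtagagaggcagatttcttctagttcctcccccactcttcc
Cd3g, chr9:44980432-44980681, minus strand: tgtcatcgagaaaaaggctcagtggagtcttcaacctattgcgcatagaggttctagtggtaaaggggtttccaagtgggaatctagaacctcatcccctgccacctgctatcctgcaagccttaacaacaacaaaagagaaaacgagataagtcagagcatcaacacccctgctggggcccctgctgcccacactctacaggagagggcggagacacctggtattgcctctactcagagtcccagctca
Lck distal, chr4:129573642-129573891, minus strand: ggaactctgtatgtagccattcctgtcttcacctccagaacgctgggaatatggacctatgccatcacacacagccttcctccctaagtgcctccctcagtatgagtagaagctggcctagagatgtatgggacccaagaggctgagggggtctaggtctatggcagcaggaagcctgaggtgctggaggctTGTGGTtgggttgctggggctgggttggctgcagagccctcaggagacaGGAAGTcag
Lck proximal, chr4:129558373-129558622, minus strand: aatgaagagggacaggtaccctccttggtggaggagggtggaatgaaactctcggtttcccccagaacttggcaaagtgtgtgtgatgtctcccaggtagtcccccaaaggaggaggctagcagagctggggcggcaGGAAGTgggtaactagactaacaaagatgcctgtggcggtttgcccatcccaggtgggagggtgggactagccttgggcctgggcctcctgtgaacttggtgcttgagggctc
Cd8a, chr6:71373177-71373426, plus strand: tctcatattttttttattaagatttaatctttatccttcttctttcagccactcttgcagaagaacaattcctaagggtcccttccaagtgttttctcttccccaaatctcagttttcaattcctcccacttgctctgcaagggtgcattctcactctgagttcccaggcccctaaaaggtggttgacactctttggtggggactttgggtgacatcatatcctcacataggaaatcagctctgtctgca

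Cd3g and Cd3d are neighbours read in opposite directions, with starts 1355 bases apart, and Cd3e lies beside them on chromosome 9. The RefSeq table held 37 windows of 300 bases (250 before to 50 after a start) for 24 of the 33 members, and some windows of 1 gene overlap. The ETS motif was in 18 of these 37 windows (48.6%) against 23.8% of all 32851 windows in the table. Several of the 18 were windows of Satb1. By gene it was in 14 of 24. Past the 4-fold mark defined below these were Bcl11b, Cd3d, Cd3e, Cd5, Il7r, Lck, Lef1, Tcf7 and Zap70. Short of the mark they were Cd247, Il2ra, Prf1, Satb1 and Tbx21. Without the motif were Cd3g, Cd27, Lat and Themis past the mark, and Cd8a, Ctla4, Foxp3, Gata3, Gzmb and Nkg7 short of it. The RUNX motif was in 7 of 37 (18.9%) against 16.8%, and the Tcf7 and Lef1 motif in 7 of 37 (18.9%) against 16%. A match to 6 letters is a description and no evidence of a bound site, and the 3 motifs were picked after the expression values had been seen.

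Values are normalized counts, meaning the reads of a gene over the size factor of its library. The libraries held 4145033 to 6425785 reads. The tissue label was met in every library by cardiomyocyte genes, whose 8 listed markers summed to 411672 to 481609.8 normalized counts. Mc4r itself, the targeted gene, had 2 reads in each of 3 libraries (knockout replicates 3 and 6, wild type replicate 1) and 0 in the other 7, too few to check the labels. In bulk tissue, fewer cells of a type and less RNA per cell cannot be told apart.

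The T-cell genes were high in 1 library. Wild type replicate 2 had 75.8 reads of the 33 members per 100000 reads, and the other 9 libraries had 17.3 to 20. In it 24 of the 33 members stood above the highest of the other 9 libraries, where 16.5% of all 14611 tested genes did. Of the 33, 17 (51.5%) were at least 4-fold above the highest other library with at least 20 normalized counts, where 0.746% of all tested genes were. Those 17 genes together gave 2800 reads in wild type replicate 2 and 35 to 76 reads in each other library.

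**Figure D1:**
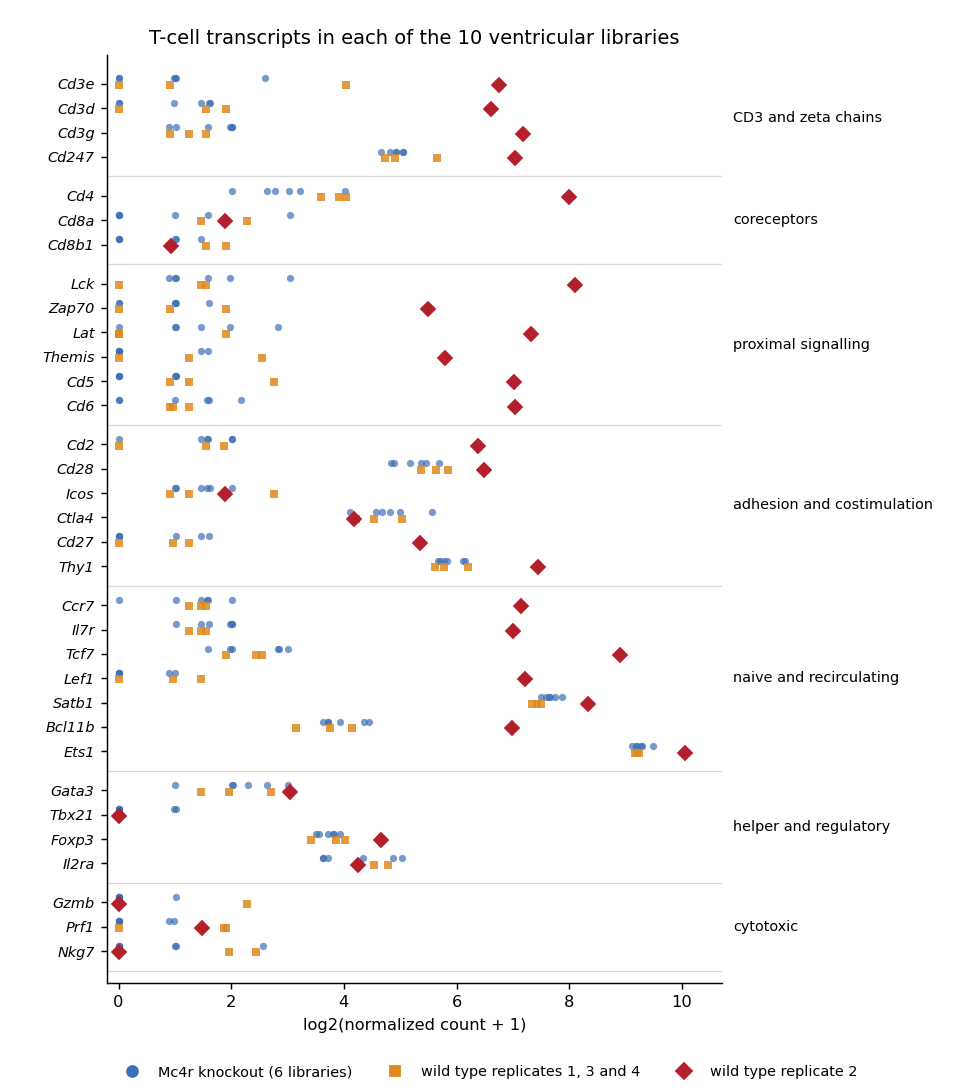
Level of each of the 33 members in each library, as log2(normalized count + 1), grouped by role. Circles are the 6 knockout libraries, squares wild type replicates 1, 3 and 4, and the diamond wild type replicate 2, which stands to the right of all others for 24 genes and among or below them for Cd8a, Cd8b1, Icos, Ctla4, Il2ra, Tbx21 and the cytotoxic genes.

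All 4 genes of the receptor complex stood above the other 9 libraries in wild type replicate 2, and 3 of them passed the 4-fold mark. Cd3e (chr9:44998735-45009663), the epsilon chain, had 15.4, 107, 0 and 0.880 normalized counts in wild type replicates 1 to 4, and 0, 0.996 and 5.05 as the lowest, median and highest of the 6 knockout libraries. Wild type replicate 2 was the highest at 6.92 times wild type replicate 1, which with 16 reads was itself above every knockout library. Cd3d (chr9:44981769-44987052), the delta chain, had 1.92, 96.6, 2.77 and 0 in the wild type libraries and 0, 1.36 and 2.07 in the knockouts. The gamma chain Cd3g (chr9:44969572-44980431) had 1.92, 144, 1.38 and 0.880 in the wild type libraries and 0.871, 2.48 and 3.05 in the knockouts. For both genes the 9 other libraries overlapped at 3 reads or fewer, near the detection limit. Cd247, the zeta chain, which NK cells also use, was present in every library, with 49.1, 129.98, 29.1 and 25.5 in the wild type and 24.2, 29.4 and 32.2 in the knockouts. Its level in wild type replicate 2 was 2.65 times that of the next library, wild type replicate 1.

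Among the coreceptors, Cd4 was high in wild type replicate 2 and the CD8 chains were not. Cd4 (chr6:124864693-124888247), the coreceptor of helper and regulatory T cells, had 15.4, 253, 11.1 and 14.1 in the wild type libraries and 3.03, 6.49 and 15.2 in the knockouts. Cd8a and Cd8b1, the alpha and beta chains of the coreceptor of cytotoxic T cells, lay within the range of the other libraries. Cd8a had 3.85, 2.71, 2.77 and 1.76 in the wild type libraries and 0, 0.506 and 7.23 in the knockouts, with its highest value in knockout replicate 2. Cd8b1 had 1.92, 0.903, 2.77 and 0.880 against 0, 0.506 and 1.74. In reads, wild type replicate 2 held 280 of Cd4 (95% exact Poisson interval 248 to 315) against 3 of Cd8a (0.619 to 8.77) and 1 of Cd8b1 (0.0253 to 5.57); these intervals cover counting error only. Per kb of transcript length its level was 81.3 normalized counts for Cd4, 0.866 for Cd8a and 0.609 for Cd8b1.

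Proximal signalling was high as a whole in wild type replicate 2, all 6 genes passing the 4-fold mark. Lck (chr4:129548344-129573641), the kinase that starts the signal, had 1.92, 273, 0 and 1.76 in the wild type libraries and 0.871, 1.52 and 7.23 in the knockouts, so that wild type replicate 2 stood at 37.7 times the next library, knockout replicate 2. Lat, the scaffold phosphorylated by Zap70, had 0, 159, 2.77 and 0 against 0, 1.38 and 6.08, the highest knockout value being that of replicate 5. Zap70 had 0, 44.2, 2.77 and 0.880 against 0, 1.011 and 2.03. Cd5, a receptor that dampens the signal, had 5.77, 128, 1.38 and 0.880 against 0, 0.505 and 1.03, and Cd6, a related surface receptor, had 0.962, 131, 1.38 and 0.880 against 0, 1.48 and 3.48. Themis, a signalling protein first known from the thymus, had 4.81, 54.2, 1.38 and 0 against 0, 0 and 2.02. For all 6 genes the range of the other 3 wild type libraries overlapped with that of the knockouts, and wild type replicate 1 was the highest of these 9 libraries for Cd5 (6 reads) and Themis (5 reads).

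Adhesion and costimulation genes divided. The adhesion molecule Cd2 had 1.92, 82.1, 0 and 2.64 normalized counts in the wild type libraries and 0, 1.99 and 3.05 in the knockouts, and Cd27, a costimulatory receptor of resting lymphocytes, had 0.962, 39.7, 1.38 and 0 against 0, 0.509 and 2.03. Both passed the 4-fold mark. Thy1, which fibroblasts and endothelium can also express, was present throughout, with 48.1, 172, 54.0 and 72.2 against 49.9, 54.6 and 70.2. Cd28, the main costimulatory receptor, was present throughout as well, with 40.4, 88.5, 48.5 and 56.3 against 27.4, 37.8 and 50.6. Wild type replicate 2 was highest for both, at 2.39 and 1.57 times the next library. Icos and Ctla4, receptors gained on activation, were not above the other libraries. Icos had 5.77, 2.71, 1.38 and 0.880 against 1.013, 1.85 and 3.03, and the inhibitory receptor Ctla4 had 22.1, 17.2, 31.8 and 17.6 against 16.2, 25.9 and 46.0, where wild type replicate 2 was the lowest wild type library. In the other 9 libraries Cd28 had 28 to 64 reads and Ctla4 16 to 47, where Cd3g had 1 to 3. Il2ra and Foxp3, described below, had 11 to 31 and 10 to 15 there. Which cells gave the reads of these 4 genes was not tested.

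All 7 naive and recirculating genes were highest in wild type replicate 2, and 5 passed the 4-fold mark. Tcf7 (chr11:52246527-52283383), a transcription factor of naive and memory T cells, had 4.81, 477, 2.77 and 4.40 in the wild type libraries and 2.02, 4.57 and 7.09 in the knockouts, 67.2 times the next library. Its partner Lef1 had 0.962, 148, 0 and 1.76 against 0, 0 and 1.0, which is 164 reads against 5 in the other 9 libraries together. The lymph node homing receptor Ccr7 had 1.92, 141, 1.38 and 1.76 against 0, 1.85 and 3.04. Il7r, the interleukin 7 receptor that keeps resting T cells alive, had 1.92, 126, 1.38 and 1.76 against 1.03, 2.48 and 3.04. Outside wild type replicate 2 the knockout and wild type values of these 4 genes overlapped at 7 reads or fewer per library.

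The other 3 genes of that group encode transcription factors with a level of their own in the ventricle. Bcl11b, which fixes T-cell identity, had 12.5, 125, 16.6 and 7.92 in the wild type libraries and 11.4, 13.2 and 20.9 in the knockouts, 6.0 times the next library in wild type replicate 2. Satb1, a chromatin organizer, had 161, 322, 179 and 169.9 against 179, 200.3 and 233. Ets1, which endothelium also expresses, had 589, 1064, 572 and 603 against 553, 602 and 718. For Satb1 and Ets1 wild type replicate 2 was highest by 1.38 and 1.48 times, short of the 4-fold mark.

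Helper, regulatory and cytotoxic genes were low everywhere or moved little. Of these 7, 0 passed the 4-fold mark, where 0.746% of all tested genes did, so the count does not set them apart from other genes. Foxp3, the factor of regulatory T cells, had 13.5, 24.4, 15.2 and 9.68 in the wild type libraries and 10.3, 12.6 and 14.2 in the knockouts, with wild type replicate 2 highest at 1.6 times wild type replicate 3. Il2ra, the interleukin 2 receptor chain of regulatory and activated T cells, had 22.1, 18.1, 18.0 and 26.4 against 11.3, 15.7 and 31.5 and did not stand out. Gata3, the factor of type 2 helper cells, had 2.89, 7.22, 5.54 and 1.76 against 1.0, 3.51 and 7.09, so wild type replicate 2 was barely above the highest knockout library.

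Wild type replicate 2 had 0 reads of Tbx21 (type 1 helper factor), Gzmb (granzyme B) and Nkg7 (a granule protein of killer cells), and a count of 0 allows up to 3 reads as a one-sided 95% limit (3.69 by the two-sided interval given for Cd4). Prf1, the pore-forming protein of killer cells, had 2 reads there. Tbx21, Gzmb and Prf1 stayed below the mean of 1 normalized count needed for testing. Their largest values were 1.02 for Tbx21 in a knockout library, 3.85 for Gzmb in wild type replicate 1 and 2.77 for Prf1 in wild type replicate 3. Nkg7 had 2.89, 0, 0 and 4.40 in the wild type libraries and 0, 0.506 and 4.89 in the knockouts.

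Levels can be set against each other only per length. The length is that of the longest GENCODE transcript matched to the row. In wild type replicate 2 the level per kb of transcript was 209 normalized counts for Ets1, 193 for Tcf7, 140.3 for Cd3g, 129 for Lat and 125 for Lck. Next came Thy1 (99.4), Cd4 (81.3), Cd3e (72.9), and Ccr7 and Cd2 (71.2 each). In the other 9 libraries the median level per kb was 116 for Ets1, 31.1 for Thy1 and 30.8 for Satb1, and at or below 2.66 for each of the 17 genes past the 4-fold mark. As a difference between wild type replicate 2 and that median, Tcf7 led with 191 per kb, ahead of Cd3g (138), Lat (128), Lck (124), Ets1 (93.4) and Cd4 (78.7), and Cd8a had 0.303.

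Over the whole table, 109 genes passed the same 4-fold mark in wild type replicate 2. Knockout replicate 5 had 5 genes that far above all others, and each of the other 8 libraries had 0. The 17 members were 15.6% of the 109, another 15 belonged to the other lists used here and 77 to none. These 109 genes took 0.239% of the reads of wild type replicate 2 and 0.0142 to 0.0183% of those of the other libraries. With the highest other library taken as at least 1 normalized count, the 10 with the largest ratio were Lef1, Ms4a4b, Tcf7, Cd96, Cd3g, Ccr7, Gimap3, Il7r, Lck and Cd6, of which 7 are members. For 1 of the 109, Dapl1, all 9 other libraries had 0 reads and the ratio has no upper bound. Ms4a4b, a membrane protein of T cells, had 155 normalized counts against at most 2.07 elsewhere.

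**Figure D2:**
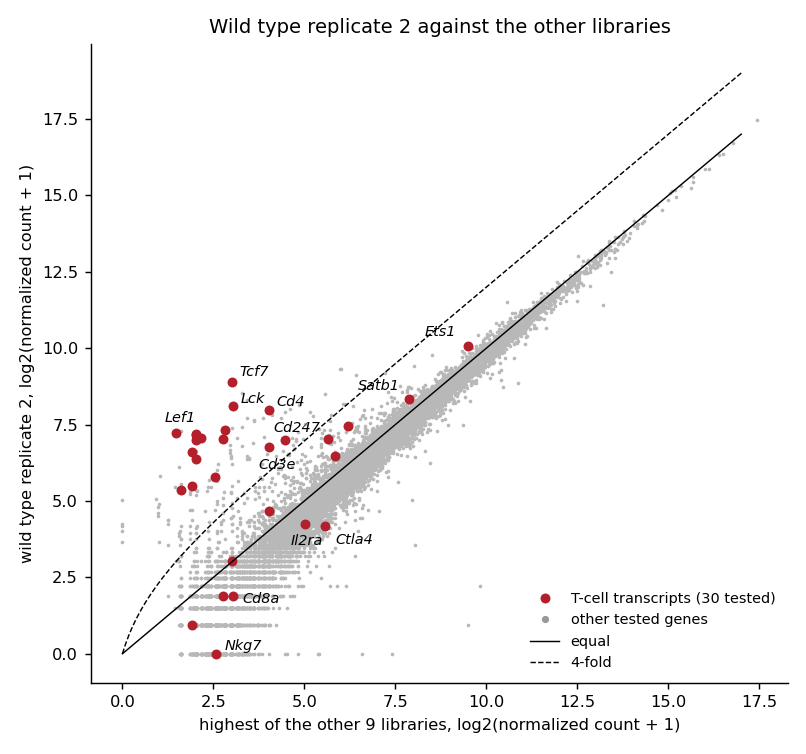
Each tested gene by its highest level in the other 9 libraries (horizontal) and its level in wild type replicate 2 (vertical), both as log2(normalized count + 1). The solid line marks equal levels and the dashed line 4-fold. Of the 30 tested members (large points), 17 lie above the dashed line with at least 20 normalized counts, among them Tcf7, Lck, Cd4 and Lef1, while Cd8a, Ctla4, Il2ra and Nkg7 lie below the solid line.

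The wider T-cell receptor pathway was high in the same library. Of 32 further genes of the pathway, 27 stood above the highest other library and 12 passed the 4-fold mark. Over all 14611 tested genes the shares were 16.5% and 0.746%. The largest ratios to the highest other library, with that library taken as at least 1 normalized count, were those of Skap1, an adaptor, with 98.4 against 0 to 3.05 normalized counts in the other 9 libraries, Ubash3a, a phosphatase that limits the signal, with 28.9 against 0 to 1.02, and Grap2, an adaptor bound to Lat, with 168 against 1.96 to 7.12. Trat1, an adaptor of the receptor complex, and Cd40lg, the CD40 ligand gained by helper T cells on activation, had 19 and 17 reads (17.2 and 15.3 normalized counts) with 0 in all 9 other libraries, so that their ratios have no upper bound; both are named after their values were seen. The 4 most abundant genes of the list, all of them present in every library, differed less. Dgkz had 657 against 383 to 525, Plcg1 533 against 385 to 445, Fyn 428 against 286 to 403 and Nfatc3 322 against 195 to 277.

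Of 16 genes of homing and quiescence, 9 stood above the other libraries and 2 passed the 4-fold mark. Among all 14611 tested genes, 16.5% and 0.746% did so. Dapl1, 1 of the 2 homing and quiescence genes past the mark, had 31.6 normalized counts, with 0 reads in all 9 other libraries. Cd69, an early activation and tissue retention marker, had 15.3 against 0 to 2.02. The exit receptor S1pr1 had 839 against 364 to 647 and the quiescence factor Klf2 262 against 139 to 184, both in tissue where endothelium also expresses them. Cxcr3, a receptor of effector T cells, had 0 reads, and Cd44, named here after its values were seen as the usual marker of antigen-experienced cells, had 65.9 against 42.4 to 71.9.

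Lists for other lymphoid sources were checked in the same way. Over all 14611 tested genes, 16.5% stood above the other libraries and 0.746% passed the 4-fold mark. Of 12 immature thymocyte markers, 5 stood above the other libraries and 1, Rhoh, passed the 4-fold mark with 81.2 against 0 to 9.78. Rag1, Rag2, Dntt, Ptcra and Cd1d2, genes of receptor rearrangement and early thymocytes, had 0 reads in wild type replicate 2. Rag2 and Cd1d2 had 0 in all 10 libraries, and Rag1, Dntt and Ptcra had 8, 4 and 1 reads in the other 9 together. None of the 10 thymic epithelium markers was above the other libraries, and 6 of them had 0 reads in wild type replicate 2. Among the 6, Foxn1, Aire, Prss16 and Krt5 had 0 in all 10 libraries. The list summed to 21.7 normalized counts in wild type replicate 2 and 10.5 to 19.2 in the others. Only 6 of the 12 thymocyte and 4 of the 10 epithelium markers were themselves tested, which limits the comparison with the shares over tested genes.

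Of 12 B-cell markers, 4 were above and 0 passed the 4-fold mark, where 16.5% and 0.746% of all 14611 tested genes did. The B-cell markers summed to 101.1 normalized counts in wild type replicate 2 and 34.6 to 72.9 in the others. Cd37, which T cells also express, had 45.1 against 0 to 23.3 and Cd79a, a chain of the B-cell receptor complex, 7.22 against 1.38 to 5.16, while Pax5, Cr2 and Vpreb3 had 0 reads. Of 10 NK-cell markers 1 was above, Gzma with 3.61 against 0 to 2.03, and 6 had 0 reads, among them Ncr1 and Klrk1. Ncr1 had 0 in all 10 libraries. Of these lists, 10 of the 12 B-cell and 2 of the 10 NK-cell markers were tested, so the shares over tested genes hardly apply to the NK-cell list.

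Of the myeloid lists, 0 of 12 macrophage and monocyte, 0 of 7 dendritic-cell and 0 of 6 neutrophil markers were above the other libraries in wild type replicate 2. Among all 14611 tested genes 16.5% were above, a share that covers only genes with a mean of at least 1 normalized count. Of the lists of adjoining tissue, 0 of 10 lymph node stroma and lymphatic, 0 of 7 adipose and 0 of 6 red-cell rows were above. Madcam1, Glycam1 and both rows of Ccl19 had 0 reads in all 10 libraries. Only 4 of the 6 neutrophil, 6 of the 10 lymph node stroma and lymphatic and 3 of the 7 adipose rows were tested. Rows at 0 cannot stand above, so the share over tested genes does not apply to them. The cardiomyocyte list had 1 of 8 above (Myh6), and the cell division, fibroblast and endothelial lists had 0. Below the lowest other library, where 12.6% of all 14611 tested genes were, lay 4 of 6 fibroblast, 2 of 6 endothelial, 3 of 10 cell division, 2 of 12 macrophage and monocyte, 1 of 10 lymph node stroma and lymphatic, 1 of 6 red-cell and 1 of 8 cardiomyocyte rows.

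**Figure D3:**
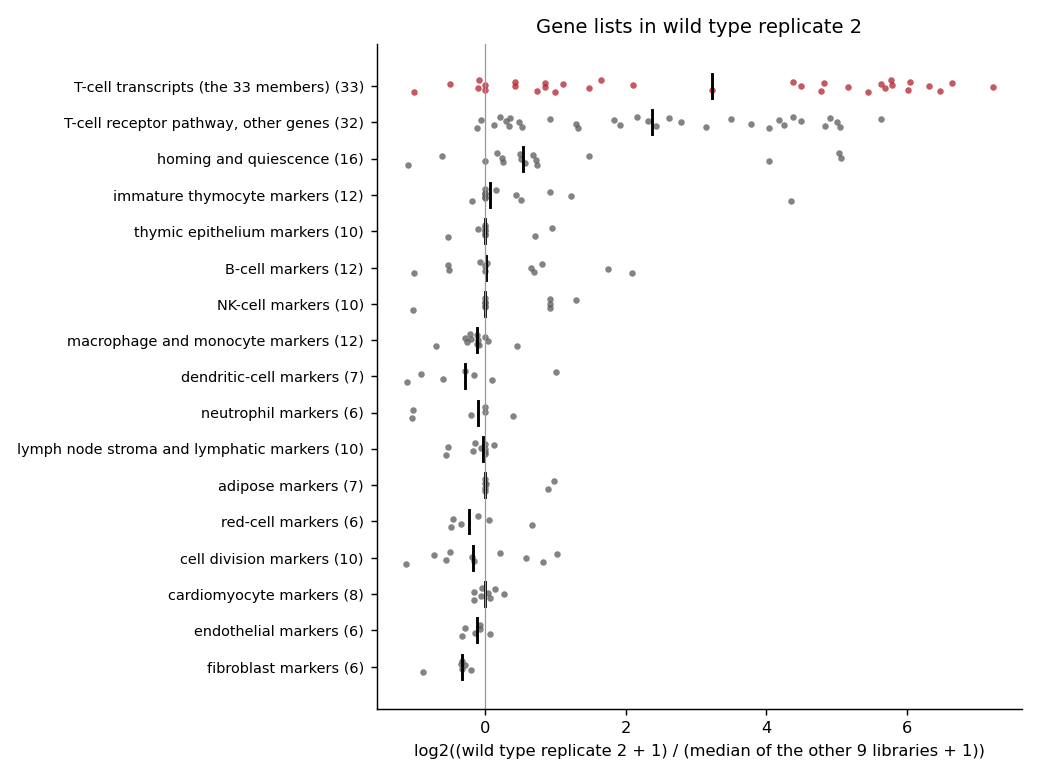
Ratio of wild type replicate 2 to the median of the other 9 libraries for each gene of each list, on a log2 scale after adding 1 to both. Points are genes, bars are list medians and the number of rows is given after each name. The members and the further receptor pathway genes spread to the right, with medians above those of every other list.

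A sex-linked transcript also set this library apart. Xist, the long RNA of the inactive X chromosome of females, had 134 normalized counts in wild type replicate 2 (148 reads, 95% exact Poisson interval 125 to 174) and 0 to 7.92 in the other 9. Tsix overlaps it on the other strand and cannot be separated, as no source used here gives the strand used in counting. The Y-linked genes were present in all 10 libraries. In wild type replicate 2 Ddx3y had 340.3 against 387 to 483 and Uty 108 against 119 to 177, both below the lowest other library, and Kdm5d had 124 against 108 to 149.5 and Eif2s3y 350.2 against 315 to 475, both within the range. The part of Xist and the Y-linked genes in the T-cell values was not tested.

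Between genotypes, no member passed the test. Over all 10 libraries limma called 67 of 14611 genes (0.459%) and 0 of the 30 members tested, at an adjusted p under 0.05. At an unadjusted p under 0.05, 3 of 30 members fell below the threshold, where 9.6% of all genes did. These were Cd28 (log2 fold change -0.60 ± 0.21 SE, limma adjusted p = 0.271), Cd5 (-2.48 ± 0.99, 0.437) and Themis (-1.89 ± 0.86, 0.497). The median log2 fold change of the 30, knockout over wild type, was -0.98, with 28 of them negative, and that of all genes -0.00554. Of the 28, 11 turned positive without wild type replicate 2 and 14 stayed negative, among them Cd8b1 (-0.74 with that library and -0.88 without), Cd8a (-0.95 and -0.95) and Nkg7 (-0.33 and -0.70). The other 3, Zap70, Cd27 and Lef1, passed the filter on low values only through that library.

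With edgeR on the recovered reads, 1 of the 30 members was called among 50 genes (0.342%). This was Cd5 (log2 fold change -5.84, edgeR adjusted p = 0.0421), with 142 reads in wild type replicate 2 and 11 in the other 9 libraries together. Without wild type replicate 2 its edgeR adjusted p was 0.433, and limma gave 0.281 to 0.637 as each library was left out in turn. At an unadjusted p under 0.05 edgeR had 20 of the 30 members and 1533 of 14611 genes. Without wild type replicate 2 it had 4 of 27 members and 1410 of 14576 genes. DESeq2 called 0 of the 9 members for which it gave an adjusted p and gave none for the other 21. Of the 17 genes past the 4-fold mark it gave any p only for Cd3e and Themis, so its count is no result on the others.

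Without wild type replicate 2, in 6 knockout and 3 wild type libraries, the members' fold changes lay on both sides of 0. limma then called 117 of 14576 genes (0.803%) and 0 of the 27 members tested, edgeR 0 and DESeq2 0 of the 9 members with an adjusted p. The median log2 fold change of the 27 was -0.04, with 14 negative, and that of all genes -0.000249. At an unadjusted p under 0.05 there were 2 of 27, where 9.9% of all genes were. Cd4 averaged 7.45 ± 4.19 (SD, n = 6) in the knockouts and 13.5 ± 2.21 (n = 3) in the wild type. Its log2 fold change was -0.90 ± 0.38 SE (adjusted p = 0.389, limma), and knockout replicate 5, at 15.2, lay among the wild type values. Satb1 averaged 203 ± 18.4 against 169.7 ± 8.96, with 0.25 ± 0.10 as its log2 fold change (adjusted p = 0.356, limma).

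Satb1 was also the 1 member of 27 whose groups did not overlap, at 179.5 to 233 in the knockouts and 161 to 178.6 in the wild type, where 4.82% of all genes did not overlap. With all 10 libraries 0 of 30 members were free of overlap, against 2.28% of all genes. Cd28, the gene with the smallest unadjusted p over 10 libraries, averaged 37.5 ± 8.86 in the knockouts and 48.4 ± 7.97 in the 3 wild type libraries, with -0.38 ± 0.20 as its log2 fold change (adjusted p = 0.562, limma). The ranges of Cd28 overlapped, from 27.4 to 50.6 and from 40.4 to 56.3.

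**Figure D4:**
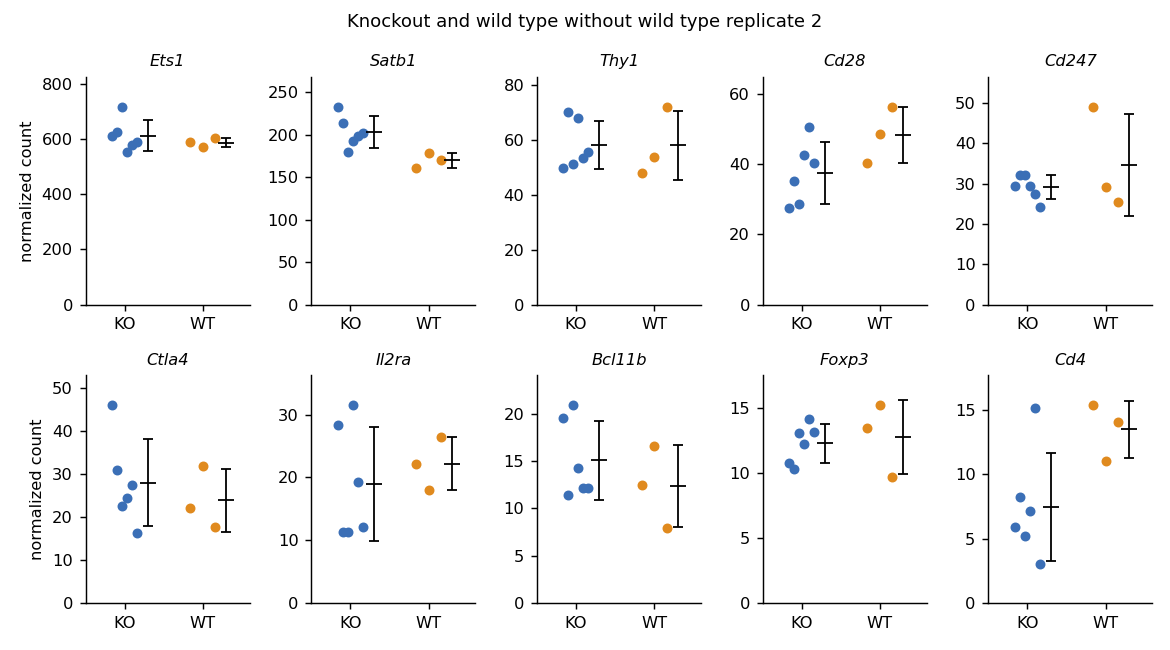
Normalized counts of the 10 members with a mean of at least 5 over the 9 libraries, without wild type replicate 2, a minimum chosen after the values were seen. Points are libraries (6 knockout, KO, and 3 wild type, WT) and bars the mean ± SD. The groups overlap for every gene but Satb1.

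None of the other well detected members passed the test. Ets1 averaged 613 ± 57.3 against 588 ± 15.7 (log2 fold change 0.06 ± 0.08, limma adjusted p = 0.882) and Thy1 58.2 ± 8.79 against 58.1 ± 12.6 (0.01 ± 0.17, 0.995). Cd247 averaged 29.1 ± 3.01 against 34.6 ± 12.7 (-0.19 ± 0.22, 0.840), the wide spread of the wild type coming from wild type replicate 1 at 49.1. Foxp3 averaged 12.3 ± 1.49 against 12.8 ± 2.83 (-0.04 ± 0.29, 0.983). Il2ra averaged 19.0 ± 9.05 against 22.2 ± 4.21 (-0.32 ± 0.31, 0.797), Bcl11b 15.1 ± 4.15 against 12.3 ± 4.35 (0.28 ± 0.30, 0.823) and Ctla4 27.9 ± 10.1 against 23.9 ± 7.27 (0.19 ± 0.26, 0.875). Summed over the 17 genes past the 4-fold mark, the knockouts had 38.6 to 61.8 normalized counts and the 3 wild type libraries 40.5 to 73.1, the highest being wild type replicate 1.

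The further receptor pathway genes gave a like picture between genotypes. limma called 0 of 31 tested genes over 10 libraries, with 2 at an unadjusted p under 0.05, and 0 of 25 without wild type replicate 2, with 3 at an unadjusted p under 0.05 and a median log2 fold change of 0.01. Of the homing and quiescence genes 0 of 13 were called (2 unadjusted) and 0 of 11 without wild type replicate 2 (1 unadjusted). In both lists the genes tested only over 10 libraries passed the filter on low values only through wild type replicate 2. Over all genes, 0.459% were called and 9.6% had an unadjusted p under 0.05 with 10 libraries. Without wild type replicate 2 these shares were 0.803% and 9.9%. Of the B-cell markers 0 of 10 were called over 10 libraries and 1 of 10 without wild type replicate 2. That gene, Cd37, had 7.70, 45.1, 0 and 1.76 normalized counts in the wild type libraries and 9.15, 13.8 and 23.3 as the lowest, median and highest knockout value, and its log2 fold change was 2.34 ± 0.48 without wild type replicate 2 (limma adjusted p = 0.0139) and 1.34 with it (0.723).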

How the data were processed

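Libraries were made from 200 ng of total RNA with an integrity number above 7, using a stranded kit with poly(A) selection, per the labels' protocols. Build mm10 and the tools Cuffnorm 2.2.1.1, Cuffdiff 2.2.1.3, Cufflinks 2.2.1, TopHat2 2.1.0, Bowtie2 and bcl2fastq come from the submitters' processing notes. The annotation and the strand used in counting are not given in the sources used here. As the values show, the authors deposited a signal per gene that equals its reads over a size factor of the library, not scaled by gene length. Divided by the size of its 1-read step, every value below 1000 reads came within 0.1 of a whole number, and these numbers are used as reads.

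Rows carry RefSeq accessions, of which 23984 matched a RefSeq gene table of GRCm38.p6 and 123 more the GENCODE metadata. Genes with a mean of at least 1 were tested with limma 3.58.1 in R 4.3.3 (trend and robust) on log2(normalized count + 1), without covariates, with two-sided p-values adjusted by Benjamini-Hochberg over all genes and a threshold of 0.05. Fold changes on this scale understate low genes. edgeR 4.0.16 (quasi-likelihood) and DESeq2 1.42.0 ran on the recovered reads. The limma procedure was also run on simulated counts. There changes were placed only in well expressed genes and the spread was estimated without wild type replicate 2. That run therefore says nothing on members with few reads or on the effect of wild type replicate 2. The design assumed raw or normalized values and took the test for the latter.

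The members, lists and the interest in wild type replicate 2 were chosen with earlier results of these data known. All members are reported. Of other lists, the 4 most abundant genes, the 3 with the largest ratio in wild type replicate 2 and markers at 0 may be named, and other names were added after their values were seen. A few listed genes enter the counts and sums of their lists and are not reported here by name. Leaving wild type replicate 2 out of edgeR and DESeq2 was added after the data were seen. Replicate numbers do not pair the genotypes (correlations of deviations from -0.198 to -0.0691 over 11033 genes).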

Additional observations from a re-analysis of the deposited data

Results flagged for a closer look

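For each member and Xist, in each genotype with more than 3 reads in some library, the gap between the highest or lowest library and its neighbour was divided by the range of the group, and gaps above Dixon's 95% critical value (0.829 for 4 libraries, 0.625 for 6) are listed. This left 50 groups, with 18 left out for few reads, and gave 25 gaps. For normally distributed values, chance gives about 1 such gap in 20 groups that were not chosen for their values. Counts of few reads are not so distributed, so that rate does not hold for them. Wild type replicate 2 was singled out earlier for its lymphocyte transcripts, so the 19 members' gaps with it as the highest wild type library describe the same excess again and are no test of it.

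For the receptor complex and Cd4 the gap in the wild type group was 0.8555 of the range for Cd3e, 0.9713 for Cd3d, 0.9927 for Cd3g and 0.9821 for Cd4. For signalling genes it was 0.9929 for Lck, 0.9374 for Zap70, 0.9826 for Lat, 0.9112 for Themis, 0.9616 for Cd5 and 0.9961 for Cd6. For Cd2 it was 0.9678 and for Cd27 0.9651. Among naive and recirculating genes it was 0.9961 for Ccr7, 0.9957 for Il7r and for Tcf7, 0.9881 for Lef1, 0.8891 for Satb1, 0.9261 for Bcl11b and 0.9364 for Ets1. For Xist the gap in the same library was 0.9505.

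The remaining 5 gaps rest on few reads. Gzmb in wild type replicate 1 had a gap of the whole range (1.0), the other wild type libraries having 0 reads. In the knockout group the highest library was replicate 6 for Cd3e (0.7955), replicate 2 for Cd8a (0.7206) and Lck (0.6754), and replicate 1 for Nkg7 (0.7921).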

How the results depend on the processing

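The number of genes called by limma (67) was 0 without trend and robust, 118 by DESeq2, and 26 to 117 as each library was left out. The highest, 117, came from leaving out wild type replicate 2. Leaving out wild type replicates 3 and 4 gave 31 and 26, and leaving out knockout replicates 1, 2 and 3 gave 37, 29 and 44. With wild type replicate 2 left out it was 108 by edgeR and 136 by DESeq2. The number of members called was 0 in every setting run but edgeR on 10 libraries (1, Cd5), and DESeq2 on 10 libraries gave no adjusted p for 21 of 30. The members' median log2 fold change of -0.98 was -1.09 and -0.84 with pseudocounts of 0.5 and 4, -1.13 with a minimum mean of 5, -3.38 by edgeR and by DESeq2, and -1.48 to -0.041 as each library was left out. The value of -0.041 came from leaving out wild type replicate 2, where edgeR gave -0.026 and DESeq2 -0.035. With the replicate block, which the pairing check did not support (no library correlated best with its own number), 52 genes and 0 members were called and the members' median was -1.16. Of the 109 genes at least 4-fold higher in wild type replicate 2, 71 were at least 8-fold higher.

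As each library was left out, limma's log2 fold change ran from -2.24 to 0.085 for Tcf7, -0.24 to 0.056 for Ets1, -2.11 to 0.59 for Lck, -1.70 to 0.74 for Lat, -1.74 to 0.35 for Cd3g, -2.03 to 0.0099 for Cd6, -1.66 to 0.26 for Il7r, -0.60 to 0.0094 for Thy1, -0.99 to 0.28 for Bcl11b, -1.82 to 0.30 for Cd2 and -0.40 to 0.12 for Gata3. These 11 highest values are those without wild type replicate 2. With that library left out, edgeR and DESeq2 in turn gave 0.15 and 0.16 for Tcf7, 0.062 and 0.060 for Ets1, 0.80 and 0.91 for Lck, 1.45 and 1.48 for Lat, 0.59 and 0.63 for Cd3g, 0.46 and 0.46 for Cd6, 0.39 and 0.42 for Il7r, 0.35 and 0.34 for Bcl11b, 0.19 and 0.26 for Cd2 and 0.31 and 0.28 for Gata3, while Thy1 did not turn, at -0.014 and -0.013. Satb1 (0.02) was -0.043 by edgeR, -0.038 by DESeq2 and -0.079 to 0.25 as each library was left out. Over the same fits Icos ran from -0.52 to 0.093, the latter without wild type replicate 1, and Nkg7 from -0.70 to 0.11, the latter without wild type replicate 4. The cause of these changes was not tested.

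The high T-cell values come from 1 library, so no replicate shows whether they recur. In the other 9 libraries 22 of the 33 members had 7 reads or fewer in every library, and depth limits what a comparison of genotypes can show for them.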

Other observations

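Outside wild type replicate 2, the 17 genes past the 4-fold mark summed highest in wild type replicate 1, at 73.1 normalized counts against 38.6 to 61.8 in the other 8 libraries, and 4 of the 33 members had 0 reads there against 6 to 10 in those. It was the highest of the 9 libraries for 7 members, knockout replicate 5 for 6 and wild type replicate 3 for 5. In wild type replicate 3, 1 read counts 1.38 normalized counts, the most of any library. For its 5 (Cd3d, Cd8b1, Zap70, Prf1 and Foxp3) some other library had as many reads or more. How often each library was highest over all genes was not counted. The members of wild type replicate 1 were as follows. The 7 were Cd3e and Cd4 (15.4 normalized counts each, with Cd4 at 15.2 in knockout replicate 5), Cd5 (5.77), Themis (4.81), Icos (5.77), Cd247 (49.1) and Gzmb (3.85). Knockout replicate 2 was the highest for Cd8a and for Lck (7.23 each), and knockout replicate 5 for Lat (6.08) and Tcf7 (7.09). Rag1, a gene of receptor rearrangement, had 5.54 in wild type replicate 3 and 4.13 in knockout replicate 2, the same number of reads over different size factors. Knockout replicate 2 had the most Dntt (3.10).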
